A study of Mus musculus with 18 samples.

Results

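The G1 cyclins, the Cdk inhibitors and the retinoblastoma gene were followed in mouse embryonic stem cells (mESCs) as they left naive pluripotency and in GFP+ mESCs of 3 genotypes. The genes were taken by symbol from the 24369 rows of the deposited expression table, and all 10 were found. They are the D-type cyclins *Ccnd1*, *Ccnd2* and *Ccnd3*, the E-type cyclins *Ccne1* and *Ccne2*, the inhibitors *Cdkn1b*, *Cdkn2a*, *Cdkn2b* and *Cdkn2c*, and *Rb1*.

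D-type cyclins activate Cdk4 and Cdk6, and E-type cyclins activate Cdk2. Both kinase activities phosphorylate the retinoblastoma protein, which otherwise holds E2F transcription factors in check, and so allow entry into S phase. The inhibitor p27 (*Cdkn1b*) acts on cyclin-Cdk2 complexes, while the Ink4 proteins (from *Cdkn2a*, *Cdkn2b*, *Cdkn2c* and *Cdkn2d*) act on Cdk4 and Cdk6. *Cdkn2a* also encodes Arf, an unrelated protein that stabilizes p53. mESCs are known for a short G1 phase that lengthens on differentiation.

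All cells came from an E14-derived mESC line with a destabilized GFP reporter knocked into *Rex1* (listed as *Zfp42*) and with Cas9 (Rex1GFPd2-Cas9). The time course has 12 libraries of this line, with 3 libraries on each of days 0, 1, 2 and 3 of differentiation. The study induced differentiation in NDiff227 medium without LIF and without the 2 kinase inhibitors of its naive medium. Its differentiation screen started from cells in that naive medium, and its differentiation assays from cells kept in serum and LIF. The paper does not say which applied to day 0 of this time course. Changes against day 0 cannot be told apart from the change of medium. The other 6 libraries are of sorted GFP+ cells, with 2 libraries each of the parental line (wild-type), of Nprl2-/- cells (*Nprl2* KO) and of Tsc2-/- cells (*Tsc2* KO). Nprl2 belongs to the Gator1 complex and Tsc2 to the Tsc complex, both of which restrain the growth kinase mTORC1. The KO cells were CRISPR-derived lines. Neither the labels nor the methods say whether the libraries of a genotype are separate clones or cultures. The same holds for whether the 3 libraries of a day are separate differentiations. All p values therefore measure the spread between these libraries, which may be technical. The GFP+ lines were kept on fibroblast feeder cells with serum and LIF. How the time-course libraries were prepared beyond RNA extraction, and whether those cells were sorted, is not given in the sources used here, so the time course and the GFP+ libraries were not compared with each other.

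Each library held between 12503005 and 15305054 estimated counts in the time course and between 8610357 and 13780861 in GFP+ cells. All 10 genes passed the low-count filter in both sets of libraries. The summed level of 10 pluripotency markers was between 2482 and 4654 TPM in every library. This sum mixes markers that moved in opposite directions. By the test given below, 6 of the 10 markers fell and 4 rose by day 3, where 70.9% of all genes were called. *Nanog* went from between 730 and 848 TPM on day 0 to between 97.4 and 170 TPM on day 3. *Dnmt3b* went from between 83.8 and 116 TPM to between 948 and 1184 TPM. The summed level of 12 fibroblast markers was between 16.7 and 51.5 TPM in the time course. It was between 128.5 and 182.2 TPM in wild-type and *Nprl2* KO cells. In *Tsc2* KO it was 165.2 TPM in library 1 and 51.2 TPM in library 2. The GFP+ libraries thus carried RNA of fibroblast markers in unequal amounts. Among these markers *Fap* was at 0 in all 12 time-course libraries, but also in wild-type library 1 and *Tsc2* KO library 2. *Fap* reached at most 0.158 TPM in any GFP+ library. *Nprl2* stood at 16.1 and 17.0 TPM in wild-type and at 8.09 and 8.65 TPM in *Nprl2* KO, and *Tsc2* stood at 45.0 and 44.9 TPM in wild-type and at 18.8 and 20.3 TPM in *Tsc2* KO, so each targeted gene was lowest in the libraries labelled as its KO. *Rex1* (*Zfp42*) went from at least 726 TPM on day 0 to at most 14.4 TPM on day 3. In bulk RNA, fewer cells of a type and less RNA per cell cannot be told apart.

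Levels are given in TPM, the share of a library's transcripts after scaling for transcript length, on a scale that has the same total in every library. Overlap of libraries is described in TPM unless CPM is named. CPM are counts relative to library size, scaled between libraries as they were for testing. Fold changes are on the log2 scale from edgeR's quasi-likelihood test on estimated counts, with their SE, and a gene was called at a Benjamini-Hochberg adjusted p below 0.05 over all genes tested. On day 1, all 10 genes were called against day 0, 7 higher and 3 lower, where 60.9% of the 14382 genes tested were called. On day 2, 7 of 10 were called against day 0, 3 higher and 4 lower, against a background of 66.6%. On day 3, 7 of 10 were called, 4 higher and 3 lower, against a background of 70.9%. The median log2 fold change of the 10 genes was 0.54 on day 1, 0.06 on day 2 and 0.09 on day 3, and that of all genes was 0.00, 0.01 and -0.01. Most of the transcriptome therefore moved with the day, and the shares of these genes on days 2 and 3 were near the background. The comparisons with day 0 share the day 0 libraries.

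**Figure D1:**
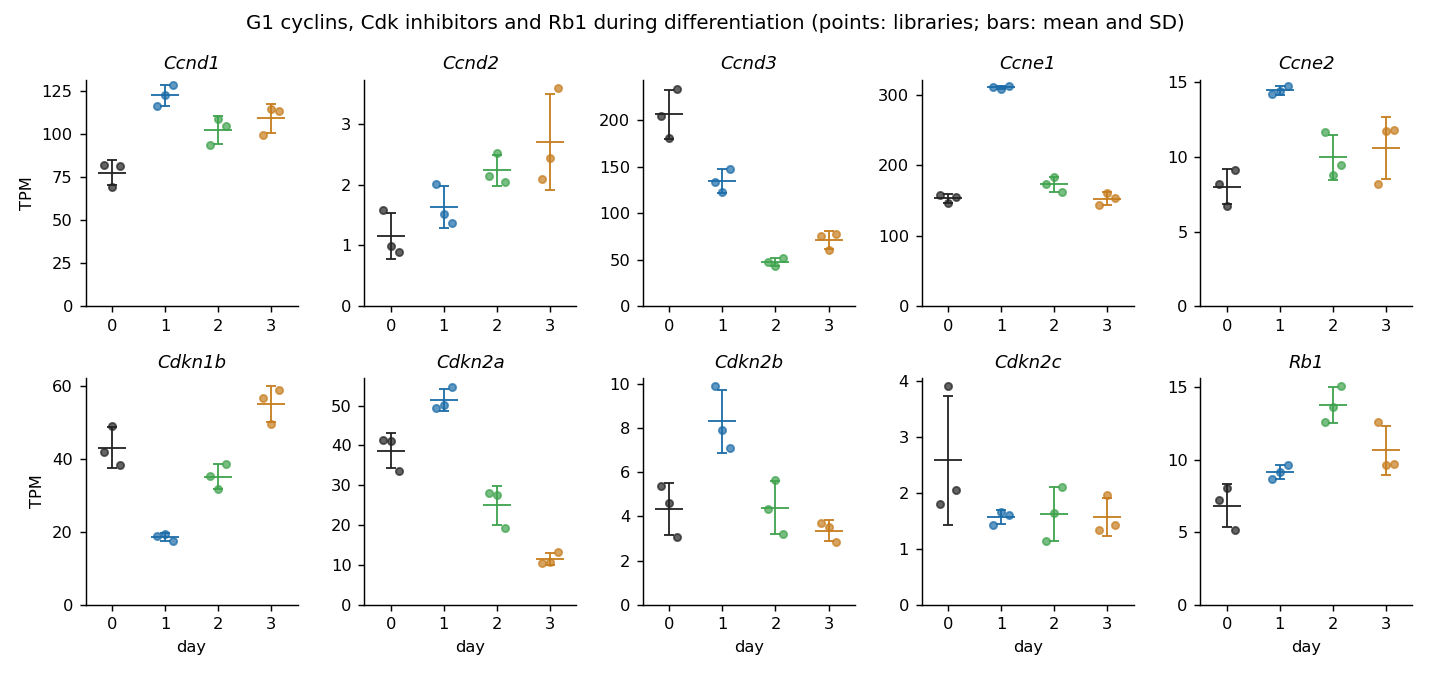
Level of each gene (y axis, TPM, from 0) on days 0 to 3 of differentiation (x axis); points are the 3 libraries of a day and bars the mean and SD. *Ccnd3* and *Cdkn2a* end far below their day 0 level, *Ccne1* peaks and *Cdkn1b* dips on day 1.

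*Ccnd3* fell over 2 days and was the D-type cyclin that changed most. It stood at 204, 181 and 234 TPM on day 0, at 133, 123 and 148 TPM on day 1, at 47.8, 43.4 and 51.8 TPM on day 2, and at 75.6, 60.3 and 77.6 TPM on day 3. No library of one day overlapped with a library of another. By day 1 the log2 fold change was -0.55 ± 0.10 (SE; n = 3 and 3, edgeR adjusted p = 0.000187). On day 2 it was -2.16 ± 0.11 (edgeR adjusted p = 4.92e-11), a level 4.46-fold lower than on day 0. From day 2 to day 3 *Ccnd3* rose again by a log2 fold change of 0.53 (edgeR adjusted p = 0.00187) and remained 3.08-fold below day 0.

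*Ccnd1* moved the other way. It stood at 82.1, 69.4 and 81.1 TPM on day 0, at 116, 123 and 128 TPM on day 1, at 93.4, 109 and 105 TPM on day 2, and at 99.1, 114 and 113 TPM on day 3. Every library of days 1 to 3 lay above every day 0 library, and the ranges of days 2 and 3 overlapped. Against day 0 its log2 fold change was 0.73 ± 0.07 on day 1 (edgeR adjusted p = 7.44e-08), 0.36 ± 0.07 on day 2 (edgeR adjusted p = 0.000294) and 0.41 ± 0.07 on day 3 (edgeR adjusted p = 6.91e-05). The decrease from day 1 to day 2 was called (log2 fold change -0.37, edgeR adjusted p = 0.000214), and the difference between days 2 and 3 was not (0.05, edgeR adjusted p = 0.656).

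*Ccnd2* was the least abundant D-type cyclin throughout, with 36 to 139 estimated counts per time-course library. It stood at 1.58, 0.983 and 0.885 TPM on day 0, at 2.02, 1.52 and 1.37 TPM on day 1, at 2.15, 2.52 and 2.04 TPM on day 2 and at 2.09, 2.43 and 3.58 TPM on day 3. The ranges of days 0 and 1 overlapped, and all libraries of days 2 and 3 lay above day 0. The rise was called on day 2 (log2 fold change 0.93 ± 0.24, edgeR adjusted p = 0.00195) and on day 3 (1.15 ± 0.23, edgeR adjusted p = 0.000218). On day 1 it was 0.59 ± 0.24 (edgeR adjusted p = 0.041), and this call was lost in 9 of 18 alternatives, among them leaving out day 0 library 2 or 3, day 1 library 1 or 2, day 2 library 1 or day 3 library 2 (adjusted p between 0.00759 and 0.206 over the 18). The summed fibroblast markers were between 16.7 and 25.6 TPM on day 0, at most 19.4 TPM on day 1 and at least 44.7 TPM on day 3. *Thy1* gave 26.8 to 33.3 TPM of this on day 3, and *Col1a1* stayed at or below 1.25 TPM on days 2 and 3. Of the 9 markers tested on day 3 against day 0, 5 were called higher and 3 lower (median log2 fold change 0.55). The share called over all genes was 70.9%. Their part in the level of *Ccnd2* was not tested.

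The D-type cyclin pool thus changed in make-up as well as in size. Summed over the 3 genes it was 285.0 ± 32.3 TPM on day 0 (SD, n = 3), 258.6 ± 16.6 on day 1, 152.2 ± 7.89 on day 2 and 182.8 ± 10.3 on day 3. *Ccnd3* held 72.3% ± 1.59 of this sum on day 0, 52.0% ± 1.95 on day 1, 31.4% ± 2.86 on day 2 and 38.9% ± 4.40 on day 3. *Ccnd1* held 27.3% ± 1.46, 47.4% ± 1.96, 67.1% ± 2.74 and 59.6% ± 4.38, so that the more abundant of the pair changed from *Ccnd3* on day 0 to *Ccnd1* on days 2 and 3. *Ccnd2* held no more than 1.84% in any time-course library. These shares are descriptions with no test.

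**Figure D2:**
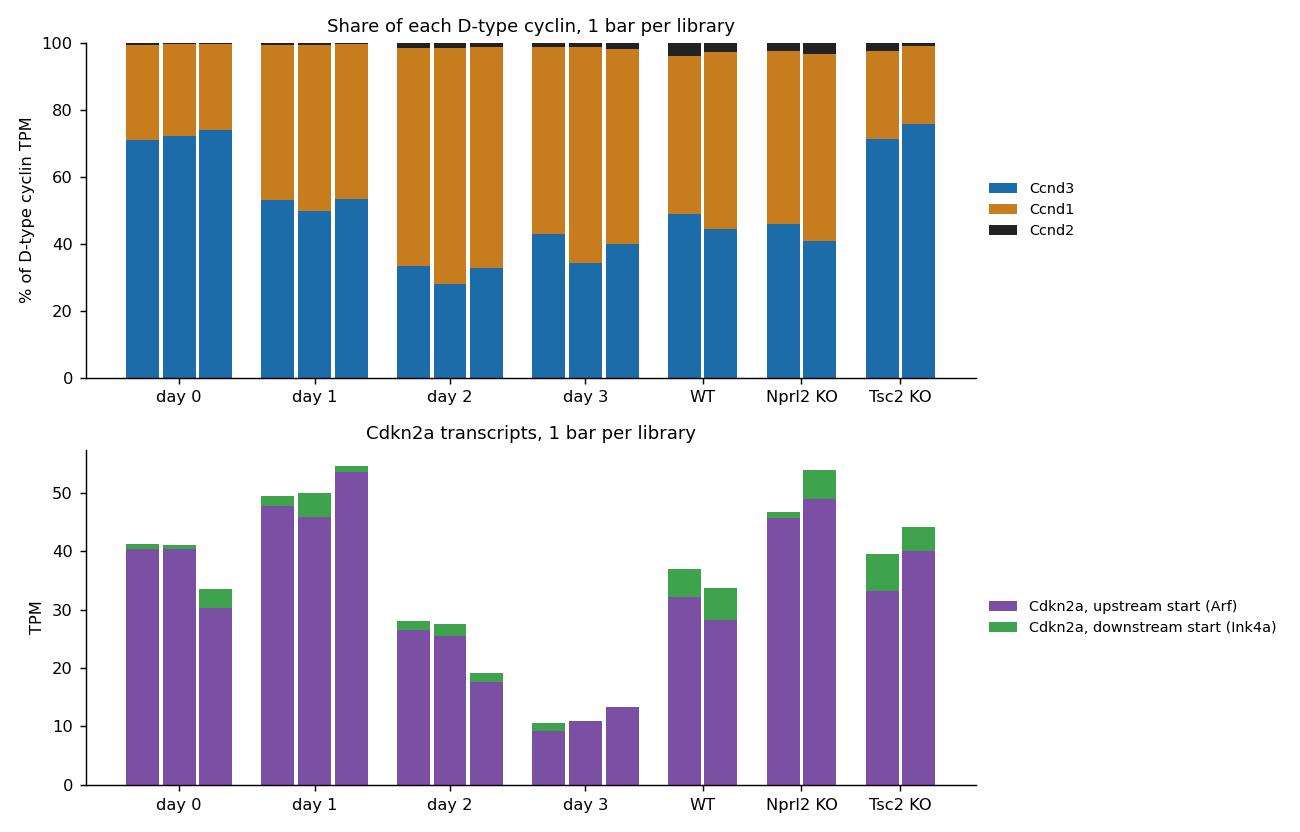
Upper panel, percent of summed D-type cyclin TPM held by each gene (y axis) in each library, 1 bar per library grouped by day or genotype; lower panel, TPM of the *Cdkn2a* transcripts with the upstream start (Arf) and the downstream start (Ink4a). The *Ccnd3* share is above 70% on day 0 and in *Tsc2* KO and lower in the other groups, and Arf holds most of the *Cdkn2a* level in every bar.

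Nearly all *Ccnd3* signal came from a single start. *Ccnd3* lies at chr17:47505051-47599689 (GRCm38.p6). The short transcript, which starts at the downstream promoter, held between 98.0% and 100% of the gene's TPM in all 18 libraries, and the transcripts with the upstream start held the rest. The main upstream transcript was at 0 counts in both *Tsc2* KO libraries, in 1 library of day 2 and in 1 of day 3, and at 7.01 to 16.7 counts in wild-type and *Nprl2* KO. The 250 bases before each start are shown so that the promoter in use can be set beside the one hardly used, in lower case, from RefSeq, on the plus strand.
Ccnd3 downstream start, chr17:47593217-47593466: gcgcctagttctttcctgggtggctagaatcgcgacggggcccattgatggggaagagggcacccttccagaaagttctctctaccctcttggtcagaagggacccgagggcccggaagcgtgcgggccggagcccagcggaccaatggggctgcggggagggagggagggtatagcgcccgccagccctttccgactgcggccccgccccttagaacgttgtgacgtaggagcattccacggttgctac
Ccnd3 upstream start, chr17:47504801-47505050: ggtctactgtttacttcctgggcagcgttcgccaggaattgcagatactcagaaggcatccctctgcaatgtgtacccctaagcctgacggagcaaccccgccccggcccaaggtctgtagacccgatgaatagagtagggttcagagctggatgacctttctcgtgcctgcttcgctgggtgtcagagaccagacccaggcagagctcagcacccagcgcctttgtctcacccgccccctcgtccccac

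*Ccne1*, the main E-type cyclin, peaked on day 1. It stood at 158, 146 and 155 TPM on day 0, at 311, 308 and 312 TPM on day 1, at 174, 183 and 162 TPM on day 2, and at 144, 161 and 154 TPM on day 3. The 3 day 1 libraries were close together and far above all others, days 0 and 3 overlapped, and every day 2 library lay above day 0. In CPM, day 2 library 3 (161) lay within the day 0 range (152 to 164). The rise to day 1 was 2.13-fold (log2 fold change 1.09 ± 0.06, edgeR adjusted p = 2.47e-11), the smallest adjusted p among the 10 genes in that comparison. From day 1 to day 2 it fell by a log2 fold change of -0.96 (edgeR adjusted p = 2.46e-10). On day 2 it differed from day 0 by 0.13 ± 0.06 (edgeR adjusted p = 0.0692), and on day 3 by -0.09 ± 0.06 (edgeR adjusted p = 0.216). Of 18 alternatives, 3 called the day 2 value and 0 the day 3 value. The later decrease from day 2 to day 3 was called (log2 fold change -0.22, edgeR adjusted p = 0.0119), and this call was lost without day 2 library 2 or day 3 library 1 (adjusted p up to 0.0739, and no lower than 0.00236 over 18 alternatives).

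*Ccne2* was the minor E-type cyclin, with 4.36% to 7.15% of the summed E-type TPM in the time course. It stood at 8.20, 6.74 and 9.11 TPM on day 0 and at 14.2, 14.4 and 14.8 TPM on day 1, with no overlap. The rise was 0.93 ± 0.14 on the log2 scale (edgeR adjusted p = 1.32e-05). On day 2 it was at 11.7, 8.81 and 9.44 TPM, and on day 3 at 8.22, 11.7 and 11.8 TPM, both overlapping with day 0. The log2 fold change against day 0 was 0.28 on day 2 (edgeR adjusted p = 0.1) and 0.32 on day 3 (edgeR adjusted p = 0.0549). Of 18 alternatives, 1 called the day 2 value and 5 called the day 3 value. kallisto divided the reads of *Ccne2* among 3 transcripts in shares that varied between libraries of one day, so no isoform is described.

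*Cdkn1b* dipped when *Ccne1* peaked. It stood at 41.8, 49.1 and 38.2 TPM on day 0, at 18.9, 19.3 and 17.5 TPM on day 1, at 35.2, 31.7 and 38.6 TPM on day 2 and at 56.6, 49.5 and 59.0 TPM on day 3. In TPM the day 1 libraries lay below all others and the day 3 libraries above all others, and days 0 and 2 overlapped. In CPM the day 1 libraries were again lowest, but days 0 and 2 did not overlap (48.6 to 61.9 against 39.1 to 46.3). The day 3 libraries were not all above day 0 in CPM (59.7 in day 3 library 2, 61.9 in day 0 library 2). Relative to day 0 it changed on the log2 scale by -1.14 ± 0.10 on day 1 (edgeR adjusted p = 6.07e-09), a level 2.21-fold lower, -0.34 ± 0.09 on day 2 (edgeR adjusted p = 0.00318) and 0.27 ± 0.09 on day 3 (edgeR adjusted p = 0.0123). The day 3 call was lost without day 0 library 1 or day 0 library 3 (adjusted p between 0.00129 and 0.0721 over 18 alternatives). Both later steps were called, at 0.80 from day 1 to day 2 (edgeR adjusted p = 1.01e-06) and 0.60 from day 2 to day 3 (edgeR adjusted p = 8.29e-05). Per library, the ratio of *Ccne1* to *Cdkn1b* TPM was 2.97 to 4.07 on day 0, 15.9 to 17.9 on day 1, 4.21 to 5.76 on day 2 and 2.54 to 3.25 on day 3.

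*Cdkn2a* fell to the end of the time course after a small rise. It stood at 41.3, 41.1 and 33.5 TPM on day 0, at 49.4, 50.03 and 54.6 TPM on day 1, at 28.0, 27.6 and 19.2 TPM on day 2 and at 10.5, 10.9 and 13.3 TPM on day 3. No library of one day overlapped with a library of another. The log2 fold change against day 0 was 0.48 ± 0.13 on day 1 (edgeR adjusted p = 0.00374), -0.67 ± 0.14 on day 2 (edgeR adjusted p = 0.000313) and -1.83 ± 0.15 on day 3 (edgeR adjusted p = 3e-09), a level 3.56-fold lower. Its day means spanned 2.28 on the log2 scale, the widest range among the 10 genes, followed by *Ccnd3* at 2.15.

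The locus at chr4:89274473-89294619 (GRCm38.p6, minus strand) makes Arf from an upstream start and the Cdk inhibitor p16, or Ink4a, from a downstream start, with shared later exons. The Arf transcript held between 83.9% and 100% of *Cdkn2a* TPM in the 18 libraries. Its level was 37.0 ± 5.75 TPM on day 0, 49.0 ± 4.05 on day 1, 23.2 ± 4.92 on day 2 and 11.1 ± 2.03 on day 3 (SD, n = 3). The Ink4a transcript was between 0 and 29.1 estimated counts in any library, with a day mean of at most 2.34 TPM in the time course. The fall of *Cdkn2a* is thus a fall of the Arf transcript, and the counts of Ink4a were too few to compare days. Because the transcripts share exons, kallisto divided part of the reads between them by its model.

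The 250 bases before each *Cdkn2a* start are shown because these promoters differ in use in the same cells, in lower case, from RefSeq, on the minus strand, with an 8-letter E2F word in capitals.
Cdkn2a Arf start, chr4:89294620-89294869: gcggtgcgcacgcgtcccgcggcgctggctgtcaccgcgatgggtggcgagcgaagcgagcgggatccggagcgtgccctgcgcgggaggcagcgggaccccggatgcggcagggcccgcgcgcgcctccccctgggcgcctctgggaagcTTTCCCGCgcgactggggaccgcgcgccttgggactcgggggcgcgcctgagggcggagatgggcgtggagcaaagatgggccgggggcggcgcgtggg
Cdkn2a Ink4a start, chr4:89282193-89282442: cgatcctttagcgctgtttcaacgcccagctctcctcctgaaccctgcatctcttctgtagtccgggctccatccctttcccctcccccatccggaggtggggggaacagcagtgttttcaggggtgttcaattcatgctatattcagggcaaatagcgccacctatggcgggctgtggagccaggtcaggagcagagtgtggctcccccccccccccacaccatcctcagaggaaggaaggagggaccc

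The E2F words searched were TTTCCCGC, TTTCGCGC, TTTGCCGC and TTTGGCGC, on both strands of the 250 bases before a start. Of 9 windows of the 6 genes with a RefSeq promoter entry (*Cdkn2a*, *Cdkn2b*, *Cdkn2c*, *Cdkn1b*, *Ccne1* and *Ccnd3*), 1 held a word, TTTCCCGC at -99 from the Arf start. Among all 32851 promoters in the table, 1.86% held at least 1 word. The Arf window was 78.4% G or C and the Ink4a window 60.0%, beside a median of 52.4% over all promoters. A match is a description of letters and not of binding.

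*Cdkn2b* encodes the Ink4 protein p15 and neighbours *Cdkn2a*, at chr4:89306289-89311032. It stood at 5.37, 4.62 and 3.06 TPM on day 0, at 9.90, 7.92 and 7.10 TPM on day 1, at 4.36, 5.64 and 3.21 TPM on day 2 and at 3.72, 3.52 and 2.85 TPM on day 3. Only day 1 stood apart, with all 3 libraries above those of the other days. Its log2 fold change on day 1 was 1.01 ± 0.23 (edgeR adjusted p = 0.000964), and it fell back by day 2 (-1.03, edgeR adjusted p = 0.000862). Against day 0 it was at -0.02 on day 2 (edgeR adjusted p = 0.952) and at -0.45 on day 3 (edgeR adjusted p = 0.134). The neighbours thus rose together on day 1, and on day 3 only *Cdkn2a* was called lower, although the difference between the neighbours was not tested.

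*Cdkn2c*, which encodes the Ink4 protein p18, was the lowest inhibitor, with 13 to 55 estimated counts per time-course library. It stood at 1.79, 3.90 and 2.04 TPM on day 0, at 1.43, 1.66 and 1.60 TPM on day 1, at 1.14, 1.64 and 2.10 TPM on day 2 and at 1.33, 1.96 and 1.43 TPM on day 3. Days 2 and 3 overlapped with day 0, and day 0 library 2 was far above the rest. In CPM, days 2 and 3 did not overlap with day 0, with at most 1.71 and 1.74 beside at least 1.80. The log2 fold change was -0.74 on day 1 (edgeR adjusted p = 0.039), -0.99 on day 2 (edgeR adjusted p = 0.00836) and -0.92 on day 3 (edgeR adjusted p = 0.0106). Without day 0 library 2 these values were -0.38, -0.64 and -0.56 and none was called (adjusted p = 0.315, 0.0896 and 0.123). On day 1 the call was also lost without any single day 1 library, and on day 3 without day 3 library 3. DESeq2 lost the day 1 call, and limma on TPM lost the calls of all 3 days. Over 18 alternatives the adjusted p lay between 0.0165 and 0.315 on day 1, between 0.00361 and 0.0896 on day 2 and between 0.00437 and 0.123 on day 3.

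*Rb1* rose to day 2. It stood at 7.21, 8.07 and 5.18 TPM on day 0, at 8.64, 9.15 and 9.65 TPM on day 1, at 12.6, 13.6 and 15.1 TPM on day 2 and at 12.6, 9.66 and 9.66 TPM on day 3. Every library of days 1 to 3 lay above day 0. Compared with day 0, *Rb1* had a log2 fold change of 0.49 ± 0.14 on day 1 (edgeR adjusted p = 0.00568), 0.96 ± 0.14 on day 2 (edgeR adjusted p = 6.73e-06) and 0.56 ± 0.14 on day 3 (edgeR adjusted p = 0.00163). The decrease from day 2 to day 3 was called (-0.41, edgeR adjusted p = 0.0238), and this was lost without day 2 library 2 or 3 or day 3 library 2 or 3, and with limma on TPM (adjusted p between 0.00506 and 0.102 over 18 alternatives).

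Between consecutive days, 8 of the 10 genes were called from day 1 to day 2, 2 higher (*Cdkn1b* and *Rb1*) and 6 lower, where 62.1% of genes were called. From day 2 to day 3, 5 of 10 were called, with *Ccnd3* and *Cdkn1b* higher and *Ccne1*, *Cdkn2a* and *Rb1* lower, against a background of 31.5%. Without day 2 library 2, 3 of 10 were called in the latter comparison. The median log2 fold change of the 10 genes was -0.51 from day 1 to day 2 and 0.04 from day 2 to day 3, beside 0.02 and -0.01 over all genes.

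Other genes tested were searched for the pattern most like those of *Cdkn2a*, *Ccnd3* and *Cdkn1b*, the 3 genes with the widest range of day means. Likeness was the root mean square difference of log2 CPM, centred on day 0, over the 12 libraries and 14381 genes. For *Cdkn2a* the closest were *Lrmp* (0.14), *Hormad2* (0.15) and *Fetub* (0.19). *Lrmp* went from 0.49 above its day 0 mean on day 1 to -1.77 on day 3 on this scale. For *Ccnd3* the closest were *Cltb* (0.18), which encodes a clathrin light chain, *Fn1* (0.22), which encodes fibronectin, and *Gabarapl2* (0.23). For *Cdkn1b* they were *Nxpe3* (0.10), *Pbxip1* (0.11) and *Tnfrsf1a* (0.13). This is a description over libraries that share day and preparation.

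The partners of these genes were counted from lists, to be read against the backgrounds over all genes, with 60.9% called on day 1, 62.1% from day 1 to day 2 and 70.9% on day 3, in near equal numbers higher and lower. Of 15 other G1 kinases, inhibitors and pocket proteins, 7 rose and 7 fell on day 1 (median log2 fold change -0.0011), and 2 rose and 10 fell on day 3 (median -0.24). *Cdkn1c*, which encodes the inhibitor p57, rose on day 1 by a log2 fold change of 2.12 ± 0.13 (edgeR adjusted p = 1.7e-10). *Cdkn1a*, which encodes the inhibitor p21, fell by a log2 fold change of -1.37 ± 0.17 (edgeR adjusted p = 3.1e-05) on the same day. The 3 genes of the Cip/Kip family therefore did not move together on day 1, as *Cdkn1b* and *Cdkn1a* fell and *Cdkn1c* rose.

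*Cdk2*, the partner of the E-type cyclins, stood at 124, 124 and 128 TPM on day 0 and at 79.2, 79.5 and 82.6 TPM on day 3 (log2 fold change -0.73 ± 0.05, edgeR adjusted p = 3.8e-10). *Cdk4* rose on day 1 only, at 0.39 ± 0.05 (edgeR adjusted p = 5e-06), and on day 3 it was at 0.04 (edgeR adjusted p = 0.52). The pocket protein gene *Rbl2* was at -0.38 on day 1 (edgeR adjusted p = 0.0235), a call lost with DESeq2 and without day 0 library 1 or 2 or day 1 library 2 (adjusted p between 0.01 and 0.118 over 18 alternatives), and at -2.16 ± 0.16 on day 3 (edgeR adjusted p = 5.6e-10), opposite in sign to *Rb1*. *Rbl1*, the other pocket protein gene, was at -0.51 on day 1 (edgeR adjusted p = 3.4e-05) and at -0.24 on day 3 (edgeR adjusted p = 0.0123), where the call was lost without day 3 library 2 (adjusted p between 0.00874 and 0.0759 over 18 alternatives).

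Of 18 S-phase genes known as E2F targets, 13 rose and 1 fell on day 1 (median log2 fold change 0.26), 17 fell and none rose from day 1 to day 2 (median -0.41), and 14 fell and 1 rose by day 3 against day 0 (median -0.21). On day 3 the number of these genes that fell was 8 with limma on TPM and 12 to 14 in the other 17 alternatives. *Cdc6*, which encodes a replication licensing factor, had a log2 fold change of 0.77 on day 1 (edgeR adjusted p = 8.04e-09), and *Mcm10* one of -0.93 from day 1 to day 2 (edgeR adjusted p = 1.45e-10). *Orc1*, which encodes a subunit of the origin recognition complex, was at -1.06 on day 3 (edgeR adjusted p = 4.32e-11). Of 14 genes of G2 and mitosis, 9 rose and none fell on day 1 (median 0.33). Of 10 E2F factors and partners, 7 rose and none fell on day 1 (median 0.33), with *Tfdp2* at 1.20, while *E2f1* was at -0.14 (edgeR adjusted p = 0.13) and at -0.85 on day 3 (edgeR adjusted p = 1.9e-08). Of 9 upstream regulators, 6 rose and 1 fell on day 1, with *Myc* at 1.87 ± 0.31 (edgeR adjusted p = 0.00061) and *Mycn* at 0.71 ± 0.11 (edgeR adjusted p = 4.3e-05). *Bmi1*, a Polycomb gene known to repress the *Cdkn2a* locus, was at 0.35 on day 1 (edgeR adjusted p = 0.00798, between 0.00144 and 0.0578 over 18 alternatives and not called with limma). On day 3 it was at -1.24 (edgeR adjusted p = 1.4e-08), and both signs were those of *Cdkn2a*. Of the other Polycomb genes listed, *Cbx7* stood at 148 to 163 TPM on day 0, 139 to 152 on day 1 and 92.0 to 110 on day 3. *Ezh2* stood at 127 to 138, 150 to 157 and 123 to 132 TPM on these days. The part of these genes in the level of *Cdkn2a* was not tested.

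In GFP+ cells, 1 of the 10 genes was called in *Nprl2* KO against wild-type, where 6.43% of 13725 genes were called. In *Tsc2* KO against wild-type, 3 were called, 1 higher and 2 lower, against a background of 29.1%. Between the KO lines, 5 were called in *Tsc2* KO against *Nprl2* KO, 1 higher and 4 lower, against a background of 34.2%. In this fit the shares in the KO against wild-type comparisons were near the background. Over 12 alternatives, 0 to 5 of the 10 genes were higher and 0 to 1 lower in *Nprl2* KO. The 5 came without the count filter or with the replicate number as a block, settings that also called more of all genes. The median log2 fold change of the 10 genes was 0.27 for *Nprl2* KO, -0.17 for *Tsc2* KO and -0.45 between the KO lines, beside 0.00, 0.00 and -0.01 over all genes. The 3 comparisons share libraries.

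**Figure D3:**
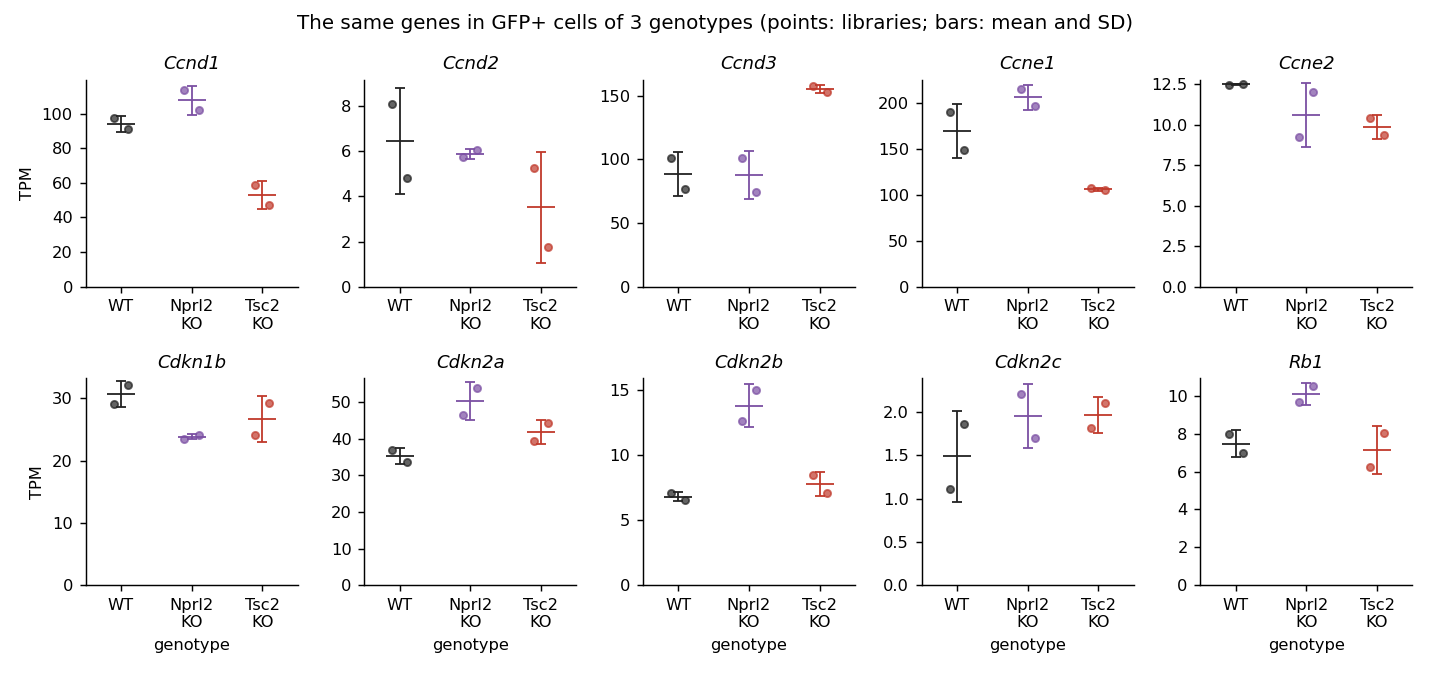
Level of each gene (y axis, TPM, from 0) in GFP+ cells by genotype (x axis; WT, wild-type); points are the 2 libraries of a genotype and bars the mean and SD. *Ccnd1* and *Ccne1* are lowest and *Ccnd3* highest in both *Tsc2* KO libraries, and *Cdkn2b* is highest in both *Nprl2* KO libraries.

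*Ccnd1* was lower in *Tsc2* KO. It stood at 97.4 and 90.8 TPM in wild-type, at 114 and 102 TPM in *Nprl2* KO and at 58.6 and 47.1 TPM in *Tsc2* KO, without overlap. The log2 fold change of *Tsc2* KO against wild-type was -0.87 ± 0.11 (n = 2 and 2, edgeR adjusted p = 0.000386), a level 1.82-fold lower. Against *Nprl2* KO it was -1.10 ± 0.11 (edgeR adjusted p = 6.63e-05). *Nprl2* KO against wild-type gave 0.24 ± 0.11 (edgeR adjusted p = 0.235). Without *Tsc2* KO library 2, which had the lowest fibroblast markers, the value of *Tsc2* KO against wild-type was -0.70 (edgeR adjusted p = 0.0008), and over 12 alternatives the adjusted p lay between 1.17e-24 and 0.00541.

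*Ccne1* followed the same order. It stood at 190.3 and 149 TPM in wild-type, at 216 and 197 TPM in *Nprl2* KO and at 107 and 105 TPM in *Tsc2* KO, without overlap. Against wild-type it was -0.72 ± 0.10 in *Tsc2* KO (edgeR adjusted p = 0.000497) and 0.31 ± 0.10 in *Nprl2* KO (edgeR adjusted p = 0.0963). The latter value was 0.48 without wild-type library 1, where it was called (edgeR adjusted p = 0.0145), and 0.16 without wild-type library 2, and 3 of the 12 alternatives called it (adjusted p from 0.00271 to 0.398). Between the KO lines the log2 fold change was -1.03 ± 0.10 (edgeR adjusted p = 3.62e-05), a level 2.04-fold lower in *Tsc2* KO. *Ccne2* stood at 12.5 and 12.5 TPM in wild-type, at 9.22 and 12.003 TPM in *Nprl2* KO and at 10.4 and 9.35 TPM in *Tsc2* KO, and was called in none of these comparisons (-0.37 in *Tsc2* KO, edgeR adjusted p = 0.0895).

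*Ccnd3* was higher in *Tsc2* KO. It stood at 101 and 76.6 TPM in wild-type, at 101 and 74.3 TPM in *Nprl2* KO and at 157 and 153 TPM in *Tsc2* KO. Wild-type and *Nprl2* KO covered the same range, and the *Tsc2* KO libraries lay above it. Its log2 fold change came to 0.76 ± 0.17 against wild-type (edgeR adjusted p = 0.023) and 0.76 ± 0.17 against *Nprl2* KO (edgeR adjusted p = 0.0192). With either *Tsc2* KO library left out, neither comparison was called (against wild-type, adjusted p = 0.0684 without library 1 and 0.0646 without library 2, beside a lowest value of 7.99e-16 over 12 alternatives, and against *Nprl2* KO 0.0609 and 0.0517, beside a lowest value of 3.98e-16).

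*Ccnd2* varied within genotypes. It stood at 8.10 and 4.81 TPM in wild-type, at 5.74 and 6.05 TPM in *Nprl2* KO and at 5.26 and 1.75 TPM in *Tsc2* KO. *Tsc2* KO differed from wild-type by -0.93 ± 0.61 on the log2 scale (edgeR adjusted p = 0.349). *Ccnd2* was highest in wild-type library 1 and lowest in *Tsc2* KO library 2, which also held the most and the fewest fibroblast marker transcripts, with *Col1a1* at 70.7 and 15.04 TPM. The part of fibroblast RNA in the level of *Ccnd2* was not tested.

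The sum of the D-type cyclins was 172.3 to 206.6 TPM in wild-type, 182.2 to 220.6 TPM in *Nprl2* KO and 202.1 to 221.1 TPM in *Tsc2* KO. The share of *Ccnd3* was 46.7% ± 3.15 in wild-type cells (SD, n = 2), 43.3% ± 3.64 for *Nprl2* KO and 73.5% ± 3.31 for *Tsc2* KO. The *Ccnd1* share was 49.9% ± 3.95, 53.7% ± 3.13 and 24.9% ± 2.24. The sums overlapped between genotypes while the shares of *Tsc2* KO stood apart. These shares are descriptions with no test.

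**Figure D4:**
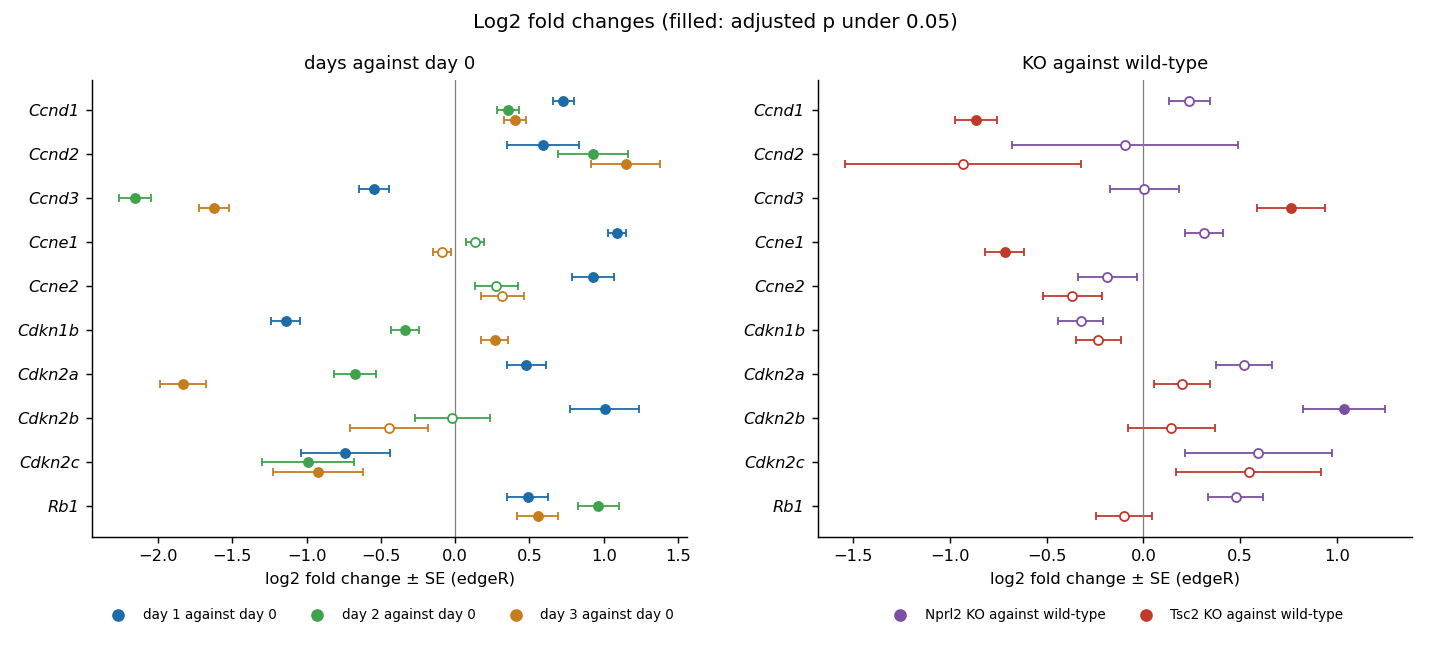
Log2 fold change with its SE (x axis) of each gene (y axis) on days 1, 2 and 3 against day 0 (left) and in each KO against wild-type (right); filled points were called in edgeR. All 10 points of day 1 are filled, and in the KO lines *Ccnd1*, *Ccnd3* and *Ccne1* are filled for *Tsc2* KO and *Cdkn2b* for *Nprl2* KO.

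*Cdkn2b* was the gene called in *Nprl2* KO. It stood at 7.04 and 6.55 TPM in wild-type, at 12.6 and 14.9 TPM in *Nprl2* KO and at 8.42 and 7.09 TPM in *Tsc2* KO. Both *Nprl2* KO libraries lay above all others, and wild-type and *Tsc2* KO overlapped. This was a log2 fold change of 1.04 ± 0.21 against wild-type (edgeR adjusted p = 0.013), a level 2.05-fold higher, from 38 and 53 counts to 92 and 136. The call was lost with DESeq2 (adjusted p = 0.0519), without wild-type library 1 (0.0616) or 2 (0.0603) and without *Nprl2* KO library 2 (0.117), and over 12 alternatives the adjusted p lay between 0.000192 and 0.117. *Tsc2* KO lay below *Nprl2* KO by a log2 fold change of -0.89 ± 0.20 (edgeR adjusted p = 0.00458), which was lost without *Nprl2* KO library 2 (0.0567) or *Tsc2* KO library 2 (0.0543), beside a lowest value of 0.000221. The fibroblast markers of both *Nprl2* KO libraries, 140.3 and 134.9 TPM, lay between those of the wild-type libraries. The part of fibroblast RNA in the level of *Cdkn2b* was not tested.

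*Cdkn2a* stood at 36.9 and 33.7 TPM in wild-type, at 46.6 and 53.9 TPM in *Nprl2* KO and at 39.5 and 44.2 TPM in *Tsc2* KO. Both KO lines lay above wild-type without overlap, and neither difference was called, at 0.52 ± 0.14 in *Nprl2* KO (edgeR adjusted p = 0.0538) and 0.20 ± 0.15 in *Tsc2* KO (edgeR adjusted p = 0.339). The *Nprl2* KO value was called in 3 of 12 alternatives, without the count filter, with the replicate number as a block and with limma on TPM. The share of the Arf transcript, as a mean of 2 libraries, was 85.4% in wild-type cells (83.9% to 87.0%). It was 94.3% in the *Nprl2* KO line (90.7% to 97.9%) and 87.3% in the *Tsc2* KO line (84.1% to 90.4%). Ink4a had 3.88 and 25.2 estimated counts in *Nprl2* KO, too few to compare genotypes. *Cdkn2c* stood at 1.11 and 1.86 TPM in wild-type, at 2.21 and 1.69 TPM in *Nprl2* KO and at 1.82 and 2.11 TPM in *Tsc2* KO, from 12 to 30 counts. It was not called in *Nprl2* KO (log2 difference 0.59 ± 0.38, edgeR adjusted p = 0.397) or in *Tsc2* KO (0.54 ± 0.37, edgeR adjusted p = 0.307).

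*Cdkn1b* stood at 29.2 and 32.1 TPM in wild-type, at 23.6 and 24.1 TPM in *Nprl2* KO and at 24.1 and 29.3 TPM in *Tsc2* KO. Both *Nprl2* KO libraries lay below wild-type in TPM and in CPM. The *Tsc2* KO libraries overlapped with wild-type in TPM but not in CPM (29.8 and 35.6 beside 36.4 and 40.8 in wild-type). On the log2 scale the difference from wild-type was -0.32 ± 0.12 in *Nprl2* KO (edgeR adjusted p = 0.129) and -0.23 ± 0.12 in *Tsc2* KO (edgeR adjusted p = 0.156). The *Nprl2* KO value was called in 1 of 12 alternatives, with the replicate number as a block. *Rb1* stood at 7.96 and 6.96 TPM in wild-type, at 9.67 and 10.5 TPM in *Nprl2* KO and at 6.24 and 8.02 TPM in *Tsc2* KO. It was at 0.48 ± 0.14 in *Nprl2* KO (edgeR adjusted p = 0.0676), and *Tsc2* KO lay below *Nprl2* KO by a log2 fold change of -0.58 ± 0.14 (edgeR adjusted p = 0.00648). The latter call was lost without *Nprl2* KO library 2 (0.0544) or *Tsc2* KO library 1 (0.0731), and with limma on TPM (0.0501), beside a lowest value of 0.000214 over 12 alternatives.

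Among the partners in GFP+ cells, *Cdk4* was at -0.26 ± 0.06 in *Nprl2* KO (edgeR adjusted p = 0.0256), a call lost without wild-type library 1 or 2 or *Nprl2* KO library 2 (adjusted p between 0.00278 and 0.146 over 12 alternatives). In *Tsc2* KO it was at -0.18 ± 0.06 (edgeR adjusted p = 0.0491), lost in 6 of 12 alternatives, including without either wild-type and without either *Tsc2* KO library (adjusted p between 0.0207 and 0.204). *Cdk6* was at -0.63 ± 0.17 in *Nprl2* KO (edgeR adjusted p = 0.0434), a call made in 4 of 12 alternatives and lost without wild-type library 1 or any of the 4 KO libraries (adjusted p between 0.00477 and 0.308). *Cdkn1c* was at -1.20 ± 0.28 in *Tsc2* KO (edgeR adjusted p = 0.0185), lost without either *Tsc2* KO library (adjusted p between 1.57e-13 and 0.0852 over 12 alternatives). Of the 15 genes of that list, 2 were called in each KO, all lower, beside 6.43% and 29.1% of all genes. Over 12 alternatives the number lower was 0 to 3 in each KO, with 0 for *Nprl2* KO without wild-type library 1 or *Nprl2* KO library 2, and 0 for *Tsc2* KO without either of its libraries, and 0 to 2 were higher in *Nprl2* KO and 0 to 1 in *Tsc2* KO.

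*Mycn* stood at 180.8 and 169.5 TPM in wild-type, at 200.6 and 184.4 TPM in *Nprl2* KO and at 36.3 and 32.6 TPM in *Tsc2* KO, a log2 difference of *Tsc2* KO from wild-type of -2.38 ± 0.08 (edgeR adjusted p = 9.4e-09) that was called in all 12 alternatives. *Myc* was not called in either KO, at -0.40 in *Nprl2* KO (edgeR adjusted p = 0.32) and -0.28 in *Tsc2* KO (edgeR adjusted p = 0.36). Over all genes 29.1% were called in *Tsc2* KO, 2050 higher and 1946 lower. Of the 10 E2F factors and partners, 6 were lower in *Tsc2* KO (median -0.29), and 3 to 7 over 12 alternatives, with 3 without wild-type library 1 or *Tsc2* KO library 2. *E2f8* was at -0.91 there (edgeR adjusted p = 0.016), a call lost when either of those libraries was left out (adjusted p between 1.48e-14 and 0.0824 over 12 alternatives). None of these 10 genes was called in *Nprl2* KO with edgeR, and 0 to 2 were over 12 alternatives. Of the 14 genes of G2 and mitosis, 11 were lower in *Tsc2* KO (median -0.43, and 8 to 11 genes over 12 alternatives), with *Mki67* at -0.74 (edgeR adjusted p = 6.5e-06), and 2 in *Nprl2* KO. Of the 18 S-phase genes, 5 were lower and 1 was higher in *Tsc2* KO (median -0.14), with 4 to 8 lower over 12 alternatives.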

How the data were processed

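RNA was sequenced from 12 time-course and 6 GFP+ libraries. Per the labels, the authors estimated abundance with kallisto 0.42.1 and named the mouse build mm10, and they deposited estimated counts per transcript and TPM per transcript and gene. The GFP+ libraries were made from poly(A) RNA with a stranded kit. Deposited tables of fold changes and p-values from the authors' DESeq2 comparisons were not used. Of 34079 transcripts, 33709 were assigned to genes by RefSeq, 196 by GENCODE M21, and 174 by neither. Their estimated counts were 2.5 to 3.57% of the total in the time course and 1.65 to 2.03% in GFP+ libraries. Estimated counts were summed per gene, rounded, filtered (filterByExpr), scaled (TMM) and tested with edgeR 4.0.16 (quasi-likelihood, robust, R 4.3.3) in 1 fit per set of libraries, 14382 and 13725 genes, with Benjamini-Hochberg adjustment. TPM values describe levels, with no further scaling between libraries. The SE of a fold change includes the spread between libraries. Alternatives were DESeq2 1.42.0, upper-quartile scaling, no count filter, a replicate block, limma 3.58.1 on log2(TPM + 1), fitting only the pair compared, and leaving out each library. The labels do not say that a replicate number marks a shared culture or day, and not every correlation of same-numbered libraries was over 0.1, so numbers were not used as pairs. The 10 genes and the gene lists were chosen with earlier results of these data known. Named list genes are the called genes with the largest absolute log2 fold change of a list and those whose known role is tied to the 10 genes. Protein sequences were not used here.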

Additional observations from a re-analysis of the deposited data

How the results depend on the processing

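Of 1260 alternative values for single genes, 1165 kept their direction and side of the threshold, 42 lost and 27 gained a call, and 26 changed sign, in 12 comparisons of a gene of which none was called. Sign changes outside omitted libraries were *Cdkn2b* on day 2 against day 0 (0.035 with upper-quartile scaling, 0.014 with limma), and with limma *Cdkn2c* from day 1 to day 2 (0.021), *Cdkn2c* from day 2 to day 3 (-0.023), *Ccnd3* in *Nprl2* KO (-0.022) and *Cdkn2c* between the KO lines (0.0085). Leaving out libraries gave log2 fold changes from -0.24 to 0.16 for *Cdkn2b* on day 2 against day 0. From day 2 to day 3 it gave -0.0040 to 0.12 for *Ccnd1*, -0.012 to 0.38 for *Ccnd2*, -0.040 to 0.20 for *Ccne2* and -0.13 to 0.33 for *Cdkn2c*. In *Nprl2* KO it gave -0.40 to 0.32 for *Ccnd2* and -0.24 to 0.21 for *Ccnd3*, and in *Tsc2* KO -0.28 to 0.053 for *Rb1*. Between the KO lines it gave -0.35 to 0.029 for *Ccne2*, -0.035 to 0.21 for *Cdkn1b* and -0.28 to 0.15 for *Cdkn2c*. In *Nprl2* KO against wild-type, 1 of the 10 genes was called, and 0 with DESeq2, 5 without the count filter, 2 with limma and 0 to 1 without single libraries. Over all genes 883 were called there, 1667 without the filter and 339 to 783 without single libraries. From day 2 to day 3, omitted libraries gave 3 to 5 of the 10 genes and 2969 to 5055 of all genes. In *Tsc2* KO they gave 2225 to 3974 of all genes against wild-type, and 3 to 5 of the 10 genes and 2974 to 4791 of all genes against *Nprl2* KO. With the replicate number as a block, 6 of the 10 genes and 2072 of all genes were called in *Nprl2* KO, the 5 gained being *Ccnd1*, *Ccne1*, *Cdkn1b*, *Cdkn2a* and *Rb1* (adjusted p between 0.00271 and 0.0269). The block also gained *Ccne2* in *Tsc2* KO and *Cdkn2a* between the KO lines and lost *Ccnd2* on day 1, and the other counts stayed within 1.5 times. Correlations of same-numbered libraries were -0.11 to 0.13 in the time course and 0.085 to 0.16 in GFP+ cells. With 2 libraries a genotype, each pair of genotypes gave 1 value, the same for both numbers and with the opposite sign for unlike numbers. These values were 0.16, 0.13 and 0.085, all above 0. The labels tie no number to a shared culture or day. In the time course, 8 of 12 libraries correlated best with a library of their own number. Taking each other day alone, with 3 libraries to choose from, the best correlated library had the same number in 24 of 36 cases. What libraries of a number share was not tested. Among the gains, *Ccnd2* in *Tsc2* KO was called without *Tsc2* KO library 1 (-1.94). The cause of these changes was not tested. *Cdkn2c*, *Cdkn2b* and *Ccnd2*, with the fewest counts, had the widest SEs.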
